A study of Mus musculus with 4 samples.

Results

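Open chromatin was described at 9 genes of the transforming growth factor β (TGF-β) pathway in microglia, the resident macrophages of the brain: Tgfb1, Nrros, Tgfbr1, Tgfbr2, Smad2, Smad3, Smad4, Smad7 and Ski. It was measured by ATAC-seq, in which the Tn5 transposase inserts sequencing adapters where DNA is accessible. The study compared 2 libraries labelled WT with 2 labelled IRF8KO, from sorted microglia of untreated C57BL/6 mice aged 3 months, and so asked how accessibility differs without IRF8, a transcription factor of macrophages and microglia. The labels speak of a brain of each genotype. The IRF8KO allele, the sort markers and whether the libraries of a genotype came from separate mice: none is given in the sources used here. P-values therefore measure the spread between libraries, which may be technical.

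The members were all deposited peaks that overlapped a gene body or the 10 kb on either side of it. There were 180 and 181 of them in the first and second WT library and 158 and 171 in the first and second IRF8KO library, of 143525 to 180970 distinct peaks per library. Peaks with a −log10 q of 2 or more, called strict here, were merged over the 4 libraries into regions. The 9 genes held 178 of the 155546 regions. Of the deposited peaks at these genes, 28, 27, 31 and 38 in the same library order were weak peaks that touched no region, and they were only counted.

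TGF-β1, encoded by Tgfb1, is secreted in a latent form, and Nrros encodes LRRC33, a membrane protein that holds latent TGF-β1 on microglia for its activation. The released ligand binds the kinase receptors encoded by Tgfbr2 and Tgfbr1, which phosphorylate the receptor SMADs, SMAD2 and SMAD3. These enter the nucleus with the shared partner SMAD4 and act on target genes, while SMAD7 blocks the receptors and SKI blocks the SMAD complex on DNA. Microglia depend on this signal for their mature identity, including expression of genes such as P2ry12, Tmem119 and Sall1.

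Signal at a region is given as normalised pileup, the depth of extended Tn5 cut sites at the strongest summit per 1000000 tags of the library. Regions with a deposited peak in all 4 libraries were tested with limma, and a difference is the log2 of IRF8KO over WT relative to the median of all 58550 such regions, with an adjusted p (Benjamini-Hochberg) over all of them. Regions below an adjusted p of 0.05 are called higher or lower. A region was WT-specific where both WT libraries had a strict peak and neither IRF8KO library had a deposited peak of any strength, and IRF8KO-specific in the converse case. Positions within a gene are distances in kb from its 5′ end to the middle of the region, negative upstream. Coordinates are GRCm38, counted from 1.

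The sequences under 4 called regions with large differences at Smad3, Tgfbr2 and Ski are shown as examples that hold a searched motif. Each is the plus strand of the 201 bases around the highest summit, with letters that match a searched motif in capitals. Whether the motifs bear on the differences was not tested. The Smad3 window chr9:63684395-63684595, 73.5 kb into the gene, was higher in IRF8KO and holds a SMAD-binding CAGA box beside the summit and the PU.1 letters on the minus strand. The Ski window chr4:155164530-155164730, at 57.9 kb, was also higher and also holds a CAGA box beside the summit. The Tgfbr2 window chr9:116121584-116121784, at 53.7 kb, was lower and holds an ETS-IRF composite element, the letters GGAA and GAAA separated by any 2 bases, to which IRF8 can bind with PU.1. The Smad3 window chr9:63740372-63740572, at 17.4 kb, was lower and holds an AP-1 site on the minus strand.
Smad3 at 73.5 kb: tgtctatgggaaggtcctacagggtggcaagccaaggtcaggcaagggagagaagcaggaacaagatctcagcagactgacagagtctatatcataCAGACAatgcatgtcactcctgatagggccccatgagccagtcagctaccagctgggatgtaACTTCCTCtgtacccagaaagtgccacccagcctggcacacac
Ski at 57.9 kb: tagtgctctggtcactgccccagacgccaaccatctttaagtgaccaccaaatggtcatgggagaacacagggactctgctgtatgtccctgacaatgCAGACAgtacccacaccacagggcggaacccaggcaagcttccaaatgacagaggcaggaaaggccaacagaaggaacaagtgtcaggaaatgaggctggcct
Tgfbr2 at 53.7 kb: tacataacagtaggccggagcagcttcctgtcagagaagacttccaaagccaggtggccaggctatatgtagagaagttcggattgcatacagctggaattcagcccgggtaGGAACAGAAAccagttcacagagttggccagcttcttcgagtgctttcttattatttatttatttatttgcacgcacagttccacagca
Smad3 at 17.4 kb: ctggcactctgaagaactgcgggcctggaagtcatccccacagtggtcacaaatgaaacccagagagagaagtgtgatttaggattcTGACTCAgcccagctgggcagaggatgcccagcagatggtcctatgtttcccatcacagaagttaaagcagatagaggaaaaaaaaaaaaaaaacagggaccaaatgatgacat
The windows of the lower Tgfbr2 region at 35.6 kb and the WT-specific Ski region at 2.60 kb, both without a sequence here, held none of the 9 motifs searched.

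Of the 13 WT-specific regions, 4 held the ETS-IRF composite, and 30 bases around it are shown for those of Tgfbr2 and Smad3, chosen after the values were seen. The other, upstream of Smad2, is described by its values below. All stretches are on the plus strand: chr9:116099351-116099380 in an intron of Tgfbr2 at 76.0 kb, chr9:116166386-116166415 in an intron of Tgfbr2 at 8.92 kb, and chr9:63667929-63667958 at a coding exon of Smad3 at 90.1 kb. The capitals mark the composite.
Tgfbr2 at 76.0 kb: ctggctttcaGGAAGGGAAAcagcctggcc
Tgfbr2 at 8.92 kb: gctatgcagaGGAAATGAAAccaaggcttt
Smad3 at 90.1 kb: tggcaaagaaGGAACAGAAAgtgtcagtta

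Over the 4 libraries, tag numbers ran from 46948938 to 48896408 in WT and from 66224648 to 78793572 in IRF8KO, a ratio of means of 1.51, and the tag size was 50 bp in WT and 49 bp in IRF8KO. Depth and tag size thus followed genotype and cannot be told apart from it. Median normalised pileup over the shared regions was 0.767 and 0.614 in WT and 0.444 and 0.695 in IRF8KO, so that IRF8KO replicate 1 stood lowest. Without centring on the median, the IRF8KO values were shifted by −0.30 on the log2 scale. A strict peak lay within 1 kb of the start site of 9 of 9 microglia marker genes in every library. Among marker genes of other cells it did so at 2 of 4 for border macrophages in every library, at 0 to 1 of 4 for monocytes and neutrophils, and at 0 to 1 of 3 for B and T cells. The count for astrocytes was 3 and 2 of 4 in WT and 1 and 1 in IRF8KO, that for oligodendrocytes was 1 to 3 of 4, for neurons 1 to 3 of 3 and for endothelium 2 to 3 of 3. Ly6c2, Ccr2, Elane, Cd3e, Cd79a, Lyve1, Cd163 and Aqp4 had no such peak in any library, and the part of other cells in the results was not tested. The Irf8 promoter itself had a strict peak in all 4 libraries, at a normalised pileup of 2.07 and 1.49 in WT and 0.863 and 1.36 in IRF8KO, so the peak lists do not test the genotype labels.

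The 9 genes were open in every library. Of their 15 promoter regions 11 were tested, and none of these was called different between genotypes. All 9 had a region within 1 kb of a protein-coding start site with a strict peak in all 4 libraries. Over the 178 regions, 75 (42.1%) had a strict peak in all 4 libraries, against 31.0% of all regions. Of the 90 regions tested, 12 (13.3%) were higher in IRF8KO, against 13.3% of all regions tested, and 9 (10%) were lower, against 12.5%. The median difference over the 90 was 0.04 on the log2 scale. The counts over the set were thus near those of the genome, and the called regions were spread unevenly among the genes. Smad3 held 7 of the 12 higher regions. Introns held 8 of the 9 lower regions, 8 of the 12 higher ones and 56 of the 90 tested.

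**Figure D1:**
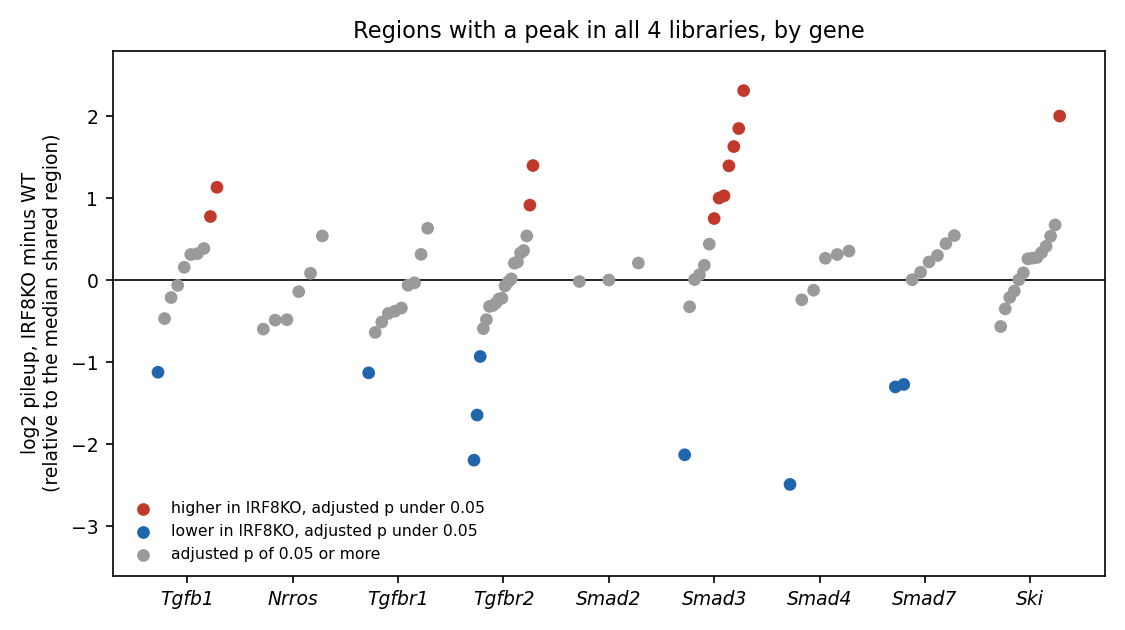
Each point is 1 of the 90 tested regions, placed by gene, with the log2 difference in pileup between IRF8KO and WT relative to the median shared region on the vertical axis. Smad3 has 7 red points (higher) and 1 blue point (lower), while Nrros and Smad2 have grey points alone.

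Without centring, 3 of the 90 regions (Smad3 at 73.5 and 79.6 kb, Ski at 57.9 kb) were higher and 9 were lower, against 2.81% and 6.82% of all regions tested. Removing the centring shifts every difference by −0.30, and the smallest of the 12 higher ones was 0.75, so no called direction could change. Leaving out WT replicate 1 left 6 higher and 4 lower, and leaving out IRF8KO replicate 2 gave 23 higher and 8 lower. With a single library in a group, the fit takes its spread from the other group.

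Some regions had strict peaks in both libraries of 1 genotype and no peak in the other, most of them on the WT side. Of the 178 regions, 13 (7.30%) were WT-specific, against 5.58% of all regions, and 3 (1.69%) were IRF8KO-specific, against 3.86%. The IRF8KO libraries, which were deeper, had the smaller number. No test was made on these classes, and leaving out 1 library changed the counts to 15 to 28 and 7 to 11. The 9 genes held 140 and 133 strict peaks in the WT libraries and 105 and 119 in the IRF8KO libraries, a mean of 136.5 ± 4.95 against 112.0 ± 9.90 (SD, n = 2 each). Over the whole lists strict peaks were also fewer in IRF8KO, without overlap, at 97473 and 98863 in WT and 83996 and 95921 in IRF8KO. At the 9 genes the groups did not overlap either, and the difference of −24.5 had an exact permutation p of 0.333 (two-sided), the smallest that 2 against 2 libraries can give. The base pairs under these peaks did overlap, at 40770 and 36948 in WT and 37796 and 40662 in IRF8KO.

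Tgfb1, the ligand gene, lies at chr7:25687002-25705077 on the plus strand and held 14 regions, 10 of them tested, with none specific to a genotype. Its promoter was at 0.980 and 0.818 in WT and 0.749 and 1.10 in IRF8KO, so that the groups overlapped (difference 0.33, adjusted p 0.389). The strongest region by its mean over the libraries, in an intron at 2.30 kb, was at 4.30, 4.21, 3.16 and 4.70 in the order WT replicates 1 and 2, IRF8KO replicates 1 and 2, the order used from here on. It did not pass the test either (difference 0.16). One region, chr7:25683524-25683856, lay 3.31 kb upstream within the neighbouring gene B9d2 and was lower in IRF8KO. It was at 2.66, 2.45, 0.939 and 0.966, with the IRF8KO libraries well below the WT libraries, a difference of −1.12 ± 0.22 (SE, limma adjusted p 2.64e-05).

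Downstream of Tgfb1, 2 regions were higher in IRF8KO. The region at 23.1 kb, between genes, was at 0.852, 0.736, 1.21 and 1.65 (difference 1.14 ± 0.24, limma adjusted p 0.000109). The region at 24.9 kb, within Ccdc97, was at 0.490, 0.593, 0.774 and 0.725 (difference 0.78 ± 0.30, limma adjusted p 0.0416). Neither pair of groups overlapped. Both calls were lost without centring, where the adjusted p was 0.327 and 0.673, and with fold enrichment, and all 3 calls at Tgfb1 were lost without WT replicate 1. The call at 24.9 kb was also lost without IRF8KO replicate 1 (difference 0.46, adjusted p 0.410).

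Nrros, whose product holds latent TGF-β1, lies at chr16:32142785-32165594 on the minus strand. By limma, 0 of its 6 tested regions among 12 were called and 0 had an unadjusted p under 0.05, and their differences ran from −0.59 to 0.54. The main promoter region was at 1.98, 1.49, 1.13 and 1.42, with both IRF8KO libraries below both WT libraries before centring and a difference of −0.14 after it (limma adjusted p 0.714). A weaker promoter region at 1.04 kb was at 0.490, 0.348, 0.152 and 0.378, and its groups overlapped. The number of strict peaks at Nrros was 11 and 9 in WT and 4 and 6 in IRF8KO, without overlap, as over the whole lists. Its 1 WT-specific region, in an intron at 10.9 kb, was weak, at 0.256 and 0.245.

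Tgfbr1, the type I receptor kinase, lies at chr4:47353222-47414931 on the plus strand and held 21 regions, 10 tested. Its promoter was its strongest region, at 5.60, 4.77, 3.41 and 4.73 (difference −0.06, limma adjusted p 0.843). An intron region at 9.50 kb was at 0.511, 0.327, 0.127 and 0.181, lower in both IRF8KO libraries than in either WT library (difference −1.13 ± 0.37, limma adjusted p 0.0158). It was the only call at Tgfbr1, and it was lost without WT replicate 1, without IRF8KO replicate 2 and with fold enrichment in place of pileup (adjusted p 0.200, 0.0830 and 0.0714). The WT-specific region at 16.0 kb was at 0.192 and 0.184, near the weakest peaks deposited.

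Tgfbr2, the ligand-binding type II receptor kinase, lies at chr9:116084293-116175360 on the minus strand and had the most regions of the set, 39, of which 20 were tested. Its 2 tested promoter regions had differences of −0.02 and 0.36, with limma adjusted p of 0.972 and 0.164. The stronger of them was at 2.73, 1.80, 1.88 and 2.84, and the groups overlapped. The calls lay away from the promoter and went in both directions, with 3 intron regions lower and 2 regions higher.

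The Tgfbr2 intron region at 53.7 kb, whose sequence with the ETS-IRF composite is printed above, was at 1.28, 0.859, 0.190 and 0.181. Both IRF8KO peaks were weak ones that did not reach the strict threshold, and the difference was −2.19 ± 0.33 (limma adjusted p 1.03e-07). The region at 35.6 kb, chr9:116139556-116139974, was at 2.71, 2.09, 0.406 and 0.936 (difference −1.64 ± 0.23, limma adjusted p 2.62e-08). Both were lower in each IRF8KO library than in each WT library, and both calls held in the 7 alternative fits, with the highest adjusted p, 0.0492 and 0.0432, without WT replicate 1.

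A stretch of Tgfbr2 between 73.3 and 76.0 kb held a lower region and 2 WT-specific regions side by side. The region at 73.3 kb was among the stronger ones of the gene, at 3.30, 2.74, 1.02 and 1.62 (difference −0.93 ± 0.20, limma adjusted p 0.000116). That call was lost when fold enrichment over the local background replaced pileup (difference −0.23, adjusted p 0.623) and without WT replicate 1. The WT-specific neighbours at 74.0 and 76.0 kb were at 0.554 and 0.511 and at 0.831 and 0.491 in WT. IRF8KO peaks ended 277 and 72 bp from them, so each is an absence of a peak at that spot beside signal that remained close by. The next region, at 76.4 kb, was at 1.47, 0.839, 0.660 and 0.906 and was not called.

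The remaining WT-specific region of Tgfbr2, at 8.92 kb, was at 0.575 and 0.716, with the nearest IRF8KO peak 315 bp away. At the WT mean before centring, it would have had a pileup of at least 42.7 in the IRF8KO libraries. The weakest peak deposited there at Tgfbr2 had a pileup of at most 13.0. Expected pileups of WT-specific regions, here and below, are before centring, which would lower that of IRF8KO replicate 1. The 2 IRF8KO-specific regions were at a UTR at 90.5 kb (0.330 and 0.347) and at a coding exon at 70.4 kb (0.228 and 0.317), both weak. The higher regions were an intron region at 14.2 kb, at 0.809, 0.593, 1.23 and 1.78 (difference 1.40 ± 0.24, limma adjusted p 2.96e-06), and a region 2.98 kb upstream, which had the highest mean pileup of the gene over the 4 libraries but not in WT alone. The upstream region was at 3.19, 2.0, 2.94 and 5.09, so the groups overlapped before centring, and its difference was 0.92 ± 0.18 (limma adjusted p 2.06e-05). Both higher calls were lost without centring, with adjusted p of 0.144 and 0.428, and that of the upstream region also with fold enrichment (difference 0.61, adjusted p 0.0660).

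Smad2, one of the receptor SMADs, lies on chromosome 18 at 76241580-76310963 on the plus strand and held the fewest regions, 10, of which limma tested 3 and called 0, with 0 at an unadjusted p under 0.05. Its promoter was at 7.54, 5.83, 4.71 and 6.16, the highest normalised pileup of any region at the 9 genes in both WT libraries, and its difference was 0.00 (limma adjusted p 0.988). A WT-specific region lay 4.11 kb upstream, between genes, at 1.32 and 0.900. At the WT mean before centring, a pileup of at least 73.5 would have been present there in the IRF8KO libraries. Their weakest peak deposited at Smad2 had a pileup of at most 9. The nearest IRF8KO peak lay 3542 bp away. The window around its summit held the ETS-IRF composite.

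Smad3, the other receptor SMAD, lies at chr9:63646767-63757994 on the minus strand and was the gene at which most regions were higher in IRF8KO. Of its 25 regions 13 were tested, 7 were higher, 1 was lower, 1 was WT-specific and 1 was IRF8KO-specific, and the median difference was 0.75. Over all regions, 13.3% of those tested were higher and 12.5% lower, and 5.58% were WT-specific and 3.86% IRF8KO-specific. The promoter was at 3.73, 2.37, 2.35 and 2.72, with overlapping groups and a difference of 0.07 (limma adjusted p 0.842). The strongest region, in an intron at 26.4 kb, was at 4.88, 3.89, 3.20 and 3.94 and was not called either (difference 0.01). A further start site inside the gene, at 45.1 kb, had a weak region at 0.383, 0.389 and 0.287 in both WT libraries and IRF8KO replicate 2, with no peak in IRF8KO replicate 1.

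The largest increase among the 90 tested regions was at 73.5 kb, chr9:63684310-63684674, the first of the printed windows. Its normalised pileup was 0.660, 0.389, 1.65 and 2.52, a difference of 2.31 ± 0.24 (limma adjusted p 2.68e-12). The region at 79.6 kb, chr9:63678152-63678606, went from 0.447 and 0.409 in WT to 1.02 and 1.54 in IRF8KO (difference 1.85 ± 0.27, limma adjusted p 6.44e-08). Between them and the 5′ end, the region at 31.2 kb was at 0.405, 0.368, 0.914 and 1.03 (difference 1.63 ± 0.29, limma adjusted p 5.90e-06). These were weak regions in WT that were more than doubled in IRF8KO. The other 4 higher regions, at 20.4, 41.6, 51.5 and 116 kb, had differences of 0.75 to 1.40, and the last lay past the 3′ end within Aagab.

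One tested region of Smad3 was lower. The intron region at 17.4 kb, chr9:63740330-63740938, was at 2.09, 1.78, 0.368 and 0.347, and fell by 2.13 on the log2 scale (SE 0.27, limma adjusted p 7.69e-10). The next region on its 3′ side, at 19.8 kb, was at 3.71, 2.02, 2.47 and 2.57 and was not called (difference 0.18, limma adjusted p 0.552). The higher region at 20.4 kb, beyond it, was at 1.0, 0.634, 1.66 and 1.74. The IRF8KO-specific region at 67.4 kb was at 0.432 and 0.695 in IRF8KO, and at that mean a WT library would have had a pileup of at least 26.4, where the weakest peak deposited at Smad3 had a pileup of at most 6.00. The nearest WT peak was 5743 bp away. The WT-specific region at 90.1 kb, at a coding exon, was weak, at 0.192 and 0.205.

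The count of higher regions at Smad3 depended on the scaling and on 1 library. It was 2 without centring, 6 with fold enrichment in place of pileup, 3 without WT replicate 1, and between 7 and 9 when any other library was left out. The regions at 73.5 and 79.6 kb were the ones called without centring, and the lower region at 17.4 kb held in all of these settings (highest adjusted p 0.0353, without WT replicate 1).

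**Figure D2:**
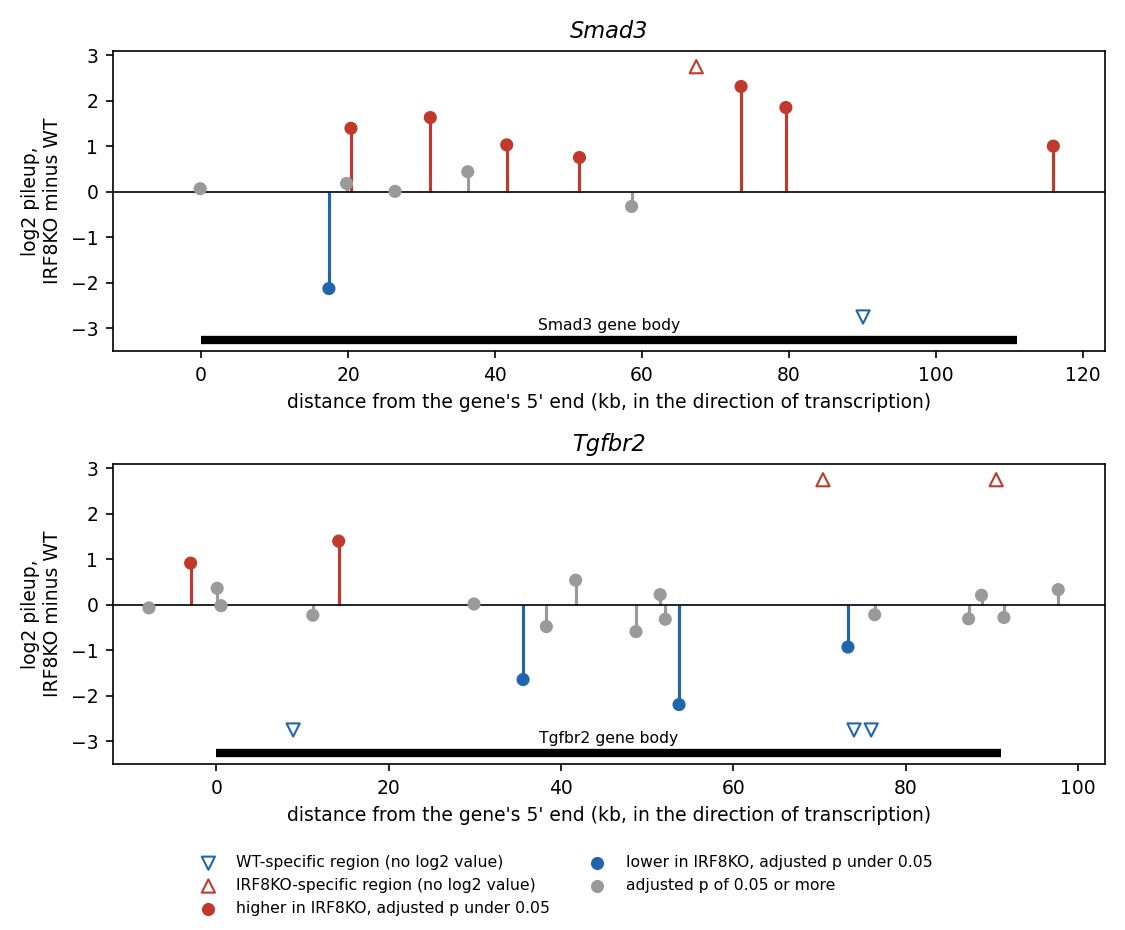
The tested regions of Smad3 (top) and Tgfbr2 (bottom) are placed by distance in kb from the 5′ end, with the log2 difference relative to the median shared region as the height of each stem. Triangles at the edges mark regions specific to WT (down) or IRF8KO (up), and the promoters at 0 kb sit near a difference of 0 in both genes.

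Smad4, the shared SMAD, lies on chromosome 18 at 73639009-73703780 on the minus strand and held 16 regions, of which 6 were tested. Its promoter was at 1.87, 1.78, 1.71 and 1.98, nearly level over the libraries (difference 0.32 after centring, limma adjusted p 0.285). The largest decrease among the 90 tested regions was in its intron at 9.95 kb, positions 73693528-73694137, at 1.77, 1.55, 0.165 and 0.347. The difference was −2.49 ± 0.29 (limma adjusted p 6.54e-11), and the call held in the 7 alternative fits (highest adjusted p 0.0195, without WT replicate 1). This window too held the ETS-IRF composite. The WT-specific regions were 2 weak intron regions, at 40.1 kb (0.383 and 0.266) and 55.9 kb (0.256 and 0.225).

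Smad7, which blocks the receptors and is itself induced by TGF-β, lies on chromosome 18 at 75367529-75395935 on the plus strand and held 14 regions, 8 tested. Of these, 2 of the 8 tested were lower and 3 of the 14 WT-specific, and none was higher or IRF8KO-specific, where over all regions 12.5% of those tested were lower and 5.58% WT-specific. The promoter was at 2.71, 1.76, 1.42 and 2.22 and was not among them (difference 0.01, limma adjusted p 0.984). The intron region at 4.11 kb was at 1.90, 1.49, 0.508 and 0.604 (difference −1.30 ± 0.25, limma adjusted p 2.05e-05), and that at 18.9 kb was at 0.639, 0.552, 0.165 and 0.242 (difference −1.27 ± 0.34, limma adjusted p 0.00287). Without WT replicate 1 the differences were −1.31 and −1.35 and neither was called (limma adjusted p 0.0665 and 0.0874).

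The strongest WT-specific region at the 9 genes lay 31.5 kb from the Smad7 5′ end, past its 3′ end, at positions 75398853-75399167. It was at 1.92 and 2.19 in WT, and no IRF8KO peak lay closer than 5812 bp. At the WT mean before centring, the IRF8KO libraries would have had a pileup of at least 136 there. Their weakest peak deposited at Smad7 had a pileup of at most 13.0. The others were in an intron at 10.1 kb (1.17 and 0.839) and at a UTR at 27.3 kb (0.532 and 0.348).

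Ski, a repressor of the SMAD complex, lies at chr4:155154075-155222592 on the minus strand and held 27 regions, 14 tested. Its promoter was at 5.11, 4.38, 2.73 and 4.03, lower in both IRF8KO libraries before centring but not called (difference −0.21, limma adjusted p 0.396). Its strongest region, in an intron at 21.4 kb, was at 7.01, 5.54, 5.47 and 6.70 (difference 0.26). The one call was the intron region at 57.9 kb, chr4:155164492-155164930, printed above. It rose from 0.618 and 0.429 in WT to 1.46 and 1.92 in IRF8KO (difference 2.0 ± 0.25, limma adjusted p 7.22e-10), while its neighbours at 59.2 and 59.8 kb had differences of 0.27 and 0.34 and were not called. This call held in the 7 alternative fits (highest adjusted p 0.0180, without WT replicate 1), and without IRF8KO replicate 2 the higher regions of Ski numbered 7 of 16. A WT-specific region in an intron at 2.60 kb, was at 1.26 and 0.879, with no IRF8KO peak within 2154 bp. At the WT mean before centring, it would have had a pileup of at least 70.7 in IRF8KO. The weakest IRF8KO peak deposited at Ski had a pileup of at most 10.

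**Figure D3:**
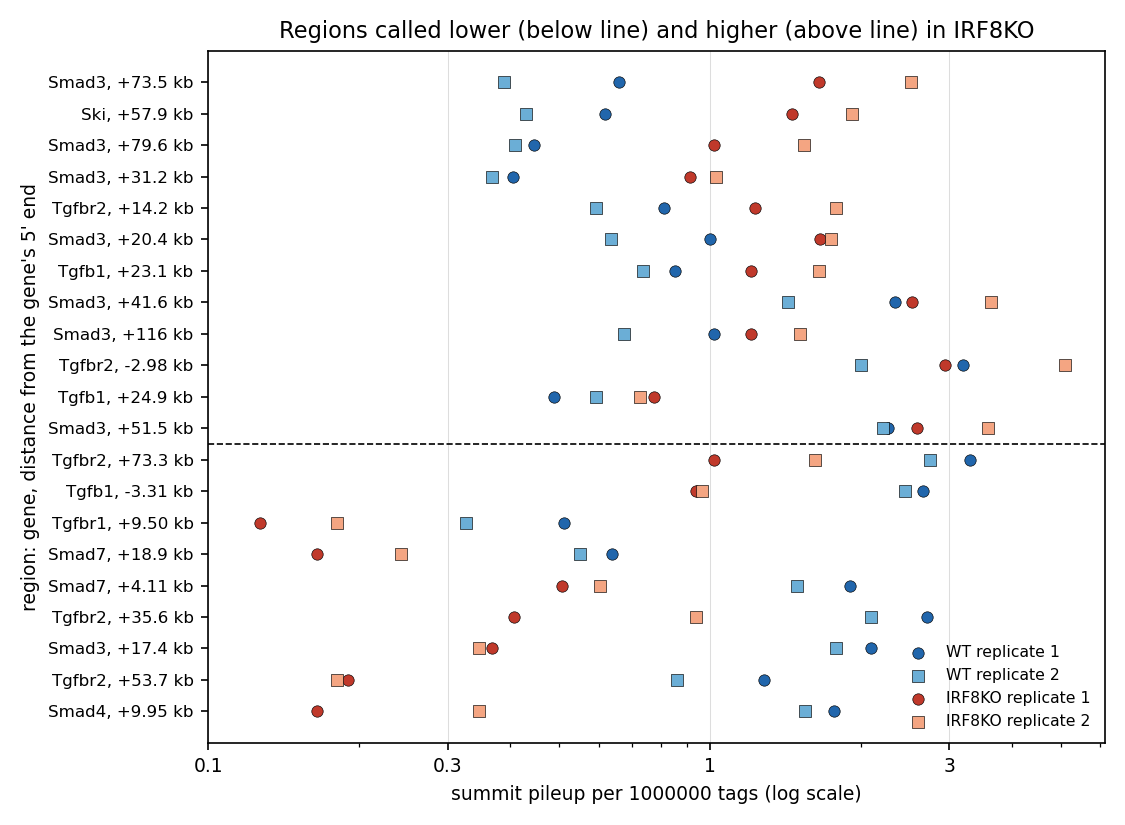
Each row is 1 of the 21 called regions, labelled by gene and distance from the 5′ end, with pileup per 1000000 tags of the 4 libraries on a log axis. Below the dashed line both IRF8KO libraries lie left of both WT libraries in every row, and above it they lie right in every row but the Tgfbr2 region 2.98 kb upstream.

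**Figure D4:**
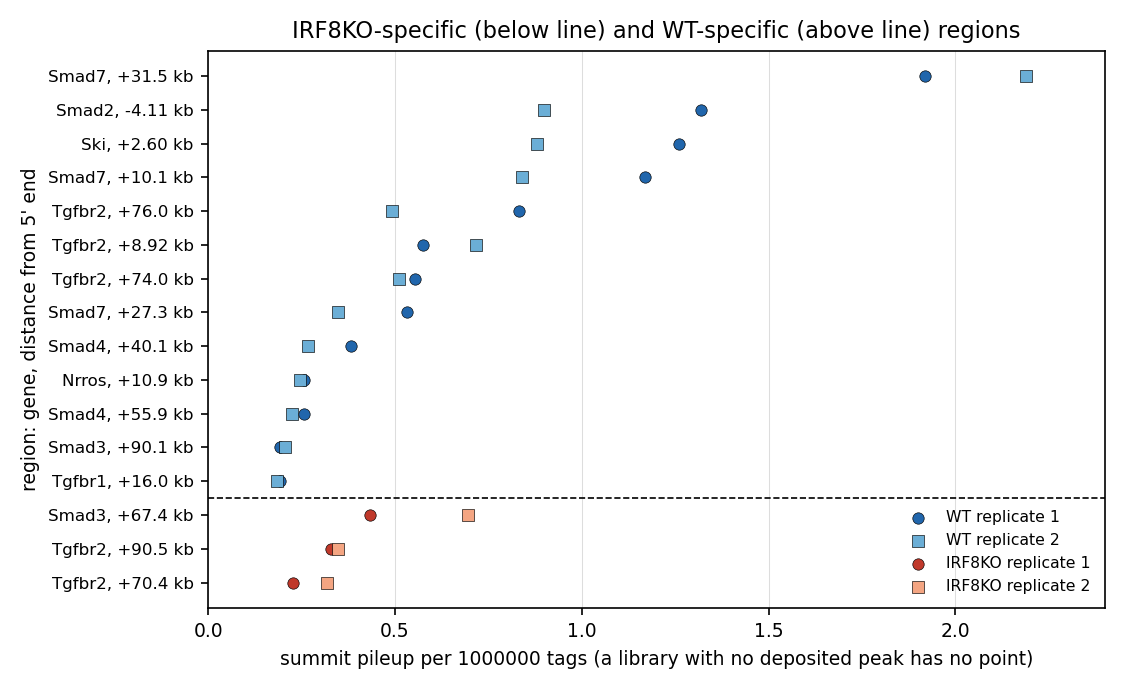
Pileup per 1000000 tags is shown for the 13 WT-specific regions (above the dashed line) and the 3 IRF8KO-specific regions (below it), and libraries with no deposited peak have no point. The Smad7 region at 31.5 kb stands highest, at 1.92 and 2.19, and the 3 IRF8KO-specific regions lie at or below 0.695.

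Of the 15 regions within 1 kb of a start site of the 9 genes, 11 were tested and 0 passed limma's adjusted p of 0.05, with differences of −0.48 to 0.36 and adjusted p of 0.164 to 0.988, and 0 had an unadjusted p under 0.05. Without IRF8KO replicate 2 the Smad4 promoter was called higher (difference 0.57, limma adjusted p 0.0406). The 4 others had no deposited peak in at least 1 library. Of the 109 intron regions, 56 were tested, with 8 higher and 8 lower (14.3% each, against 13.3% and 12.5% of all regions tested), and 9 were WT-specific and 1 IRF8KO-specific. The difference between promoters and introns was not tested. Among the called regions, the median difference was 1.27 for higher and −1.30 for lower ones, against 1.16 and −1.14 over all called regions.

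The called and specific regions were also described by the motifs in the 201 bases around their summits, on both strands. An exact match is a description of the sequence, and its absence says only that these letters are not in the window. The ETS-IRF composite was in 10 of the 178 regions (5.62%), against 4.30% of all regions. It was in 6 of the 22 lower or WT-specific ones (27.3%), namely the printed Tgfbr2 and Smad3 stretches and the regions of Smad2 and Smad4 above, and in 0 of the 15 higher or IRF8KO-specific ones. The other 4, of which 2 were at Tgfbr2, were not called or not tested. The share was 12.6% over all lower regions, 18.7% over all WT-specific regions and 2.57% over all higher regions. AP-1 sites (TGAGTCA) were in 4 of the 15 higher or IRF8KO-specific regions (26.7%), 2 of them at Smad3, and in 1 of the 22 (4.55%), against 5.91% of all regions and 14.3% of all higher ones. RUNX sites (TGTGGTT) were in 4 of 15 and 3 of 22, against 5.58% of all regions, 10.5% of all higher and 11.0% of all IRF8KO-specific ones, and 3 of the 4 were higher regions of Smad3.

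Of the sites to which SMAD proteins themselves bind, the CAGA box (CAGACA) was in 41 of the 178 regions (23.0%), against 19.2% of all regions. It was in 5 of the 15 higher or IRF8KO-specific regions and in 6 of the 22 lower or WT-specific ones. The SMAD palindrome (GTCTAGAC) was in 1 region, the promoter of Smad7, and 0.271% of all regions held it. The GC-rich site (GGCGCC) was in 3 regions (1.69%), against 4.04%. PU.1 letters (GAGGAAGT) were in 12 (6.74%) against 7.74%, C/EBP letters (TTGCNNAA) in 16 (8.99%) against 9.54%, and the interferon-stimulated response element in 4 (2.25%) against 3.13%. The PU.1 letters and the ETS-IRF composite share GGAA and can overlap. Median GC content of the windows was 52.0% at the 9 genes and 49.3% over all regions.

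Around these 9 genes, 52 other genes of the pathway held 677 regions, of which 326 were tested, 55 (16.9%) were higher and 43 (13.2%) lower, against 13.3% and 12.5% of all regions tested. Without centring these counts were 12 and 21, and without WT replicate 1 they were 22 and 11, so the balance of directions and the splits by role below hold for the centred values of all 4 libraries. A further 40 regions (5.91%) were WT-specific and 28 (4.14%) IRF8KO-specific, against 5.58% and 3.86% of all regions. Receptor genes had 1 higher and 10 lower of 44 tested, with 5 of the lower ones at Acvr1, which encodes a type I receptor of the bone morphogenetic protein branch. Genes of ligands and their activation had 16 higher and 6 lower of 73, of which Itgb5, an integrin chain, held 8 and 4. Inhibitor genes had 15 higher and 7 lower of 74. Transducers had 7 and 7 of 40, general target genes 7 and 0 of 17, and targets known in microglia 9 and 13 of 78.

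The inhibitor genes split by gene. Counts of calls by gene are for the centred values of all 4 libraries unless stated. Over all tested regions, 13.3% were higher and 12.5% lower. Pmepa1, which keeps receptor SMADs from the receptor and is induced by TGF-β, had 13 of 18 regions higher and none lower. This count was 2 without centring and 1 with fold enrichment over the local background, where 1 region was lower, and 4 without WT replicate 1. Smurf1, a ubiquitin ligase that acts with SMAD7 on the receptors, had 4 of 6 tested regions lower and 3 of 19 regions WT-specific. Nedd4l, another ubiquitin ligase, had no call among 13 tested regions and 7 of 42 regions WT-specific, where the share over all regions was 5.58%. Dab2, an adaptor of the receptors, had 4 of 8 tested regions higher and 10 of 36 regions IRF8KO-specific. Ltbp1, which binds latent TGF-β in the matrix, had 2 of 3 tested regions higher and 5 of 30 regions IRF8KO-specific, where the share over all regions was 3.86%.

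**Figure D5:**
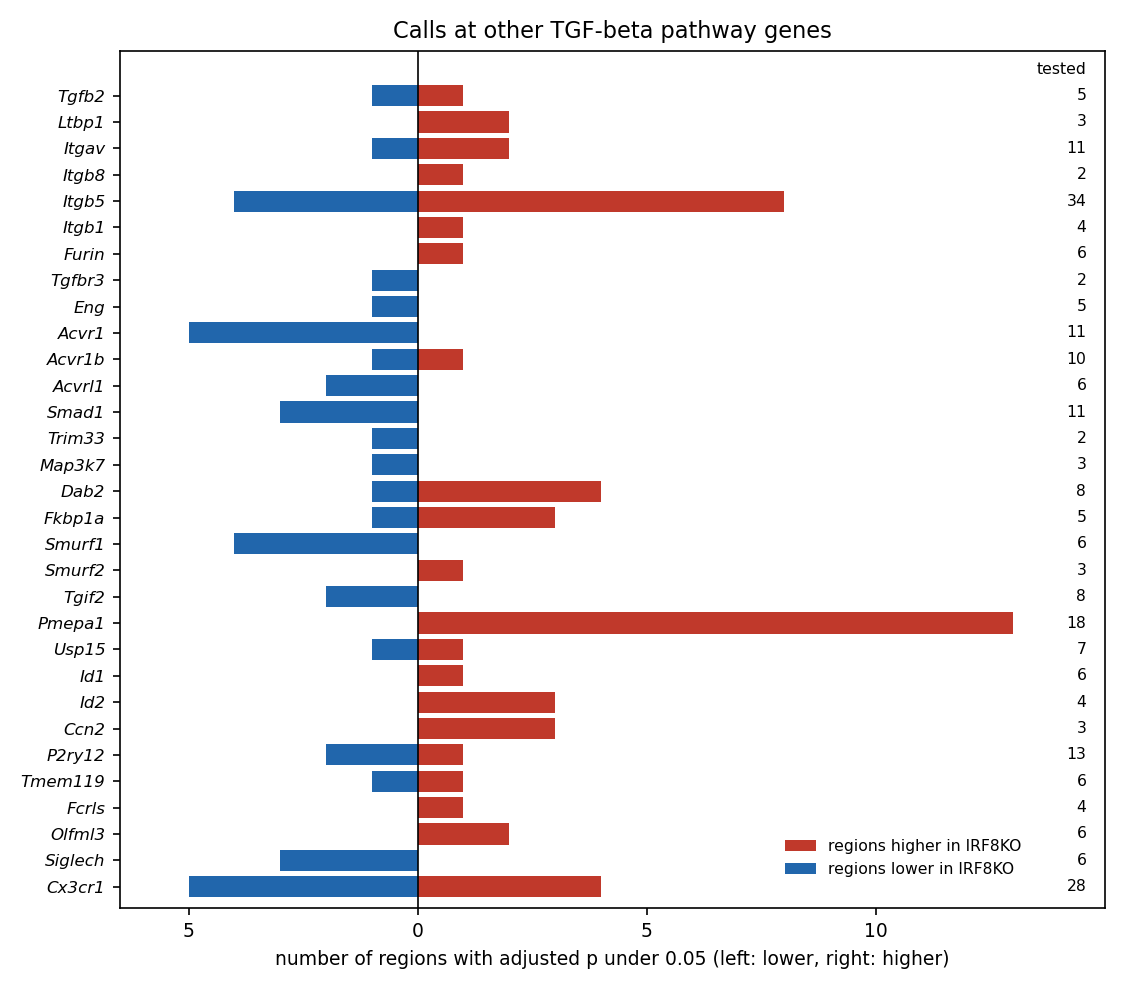
Bars give, for other pathway genes with a call, the number of regions higher (right, red) and lower (left, blue) in IRF8KO, with the number tested at the right margin. Pmepa1 has 13 higher regions of 18 and Acvr1 5 lower of 11.

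A region annotated to an intron of Cx3cr1, the fractalkine receptor gene, 143 kb from its nearest start site in this annotation, was at 0.469, 0.552, 3.31 and 4.41 (difference 3.21, limma adjusted p 9.45e-20). A promoter inside Acvrl1, which encodes the type I receptor ALK1, lay 6.02 kb from the 5′ end of the gene and was at 2.15, 2.25, 0.216 and 0.287 (difference −2.84, limma adjusted p 7.98e-14). Both IRF8KO libraries lay below both WT libraries there. With fold enrichment in place of pileup these differences were 1.67 and −1.87. The other named regions were in Map3k7 (−2.81) and Eng (−2.42), which were lower, and at Fkbp1a (2.65 and 2.60), Pmepa1 (2.62), Cx3cr1 (2.44), Ltbp1 (2.28 and 2.20), Itgb8 (2.03) and Itgb5 (1.99), which were higher. This further Cx3cr1 region lay 124 kb from the nearest start site of that gene. The intron label of both Cx3cr1 regions was given without checking for other gene bodies at those sites. Fold enrichment made the smaller Ltbp1 value 0.99 and the Pmepa1 value 1.39. Among the microglial targets, P2ry12 had 1 region higher and 2 lower of 13, Tmem119 had 1 and 1 of 6 and Siglech had 0 and 3 of 6, where 13.3% of all tested regions were higher and 12.5% lower. Sall1, a microglial identity factor, had 14 regions, none with a peak in all 4 libraries.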

How the data were processed

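The authors deposited 1 peak list per library. Per the submitters' processing notes, bcl2fastq, Bowtie2, MACS2 2.1.1.20160309, deepTools and mm10 were used. Per the file headers, each library was called on its own, with no control and a p cutoff of 0.01, with cut sites shifted by −37 bp and extended to 73 bp, which suits Tn5 data, and a local background over 10 kb. The deposited pileup is a signal, a whole-number depth at a summit that is not scaled for depth. Fold enrichment, as deposited, is the ratio to the local background. The deposited p and q are −log10 values, and the q column held values although q was not calculated, per the file headers. Peak scores are the authors' own. The lowest deposited pileup was 6, 6, 8 and 7, or 0.128, 0.123, 0.102 and 0.106 per 1000000 tags, lower in the deeper libraries.

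Repeated intervals were reduced to distinct peaks with their best summit. Pileup was scaled to 1000000 header tags, which assumes that pileup scales with tags, and each library was centred on its median log2 value over the tested regions. No pseudocount was used, since a region without a peak has no value. limma 3.58.1 (trend) was run in R 4.3.3 on the autosomes and chromosome X and was tested on simulated data. The annotation was GENCODE M21. Of the 52 pathway genes all were found, Ccn2 under the symbol Ctgf. Alternatives were no centring, fold enrichment in place of pileup, a replicate block, each library left out, a −log10 q of 5, all deposited peaks merged, 50% cover of a region, and flanks of 2 kb.

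The regions named per gene were those at its start sites, those specific to a genotype, the called ones (at most 4 by size of difference) and the strongest one, and up to 12 called regions of the pathway list. The other Smad3 calls and regions beside a named one were added after their values were seen. A gene of the pathway list and a marker gene are counted in the totals and not reported by name here. The members and lists were chosen with earlier results of these data known.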

Additional observations from a re-analysis of the deposited data

How the results depend on the processing

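The library depths, the 2 libraries per genotype and the absence of values below the calling threshold limit these results. Counts at the 9 genes, first higher and then lower, were 12 and 9. Without centring the higher count was 3, and leaving out 1 library gave 6 to 23 higher and 4 to 10 lower. For the 52 other pathway genes (55 and 43), no centring gave 12 and 21, fold enrichment 27 and 25, and leaving out 1 library 22 to 61 and 11 to 58. All calls at the 9 genes under no centring and under fold enrichment were among the original calls. None of the 17 named called regions of these genes changed direction in the 7 alternative fits. Neither removing the centring nor the replicate block could have changed a direction. WT-specific regions at the 9 genes (13) numbered 5 at a −log10 q of 5 and 15 to 28 with 1 library left out, and IRF8KO-specific ones (3) numbered 1 and 7 to 11. At the other pathway genes the WT-specific count (40) became 23 and 44 to 87, and the IRF8KO-specific count (28) became 13 and 35 to 72. Leaving out a library relaxes the requirement for a specific region, so those counts rise by construction. Merging all deposited peaks, 50% cover and flanks of 2 kb kept the counts within 1.5 times of the original.

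The difference between replicates 1 and 2 in WT and that in IRF8KO had a correlation of 0.0044 over 58550 regions. This shows no replicate effect shared by the genotypes, and it cannot show whether libraries of the same number were prepared together. With the replicate block, the counts were 12 higher and 9 lower at the 9 genes and 55 and 44 at the others, and the difference in strict peaks was −24.5 (exact p 0.50). Leaving out 1 library, that difference ran from −31.5 to −17.5, and it was −13.5 at a −log10 q of 5 and −16 over all deposited peaks.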
